A study of Mus musculus with 22 samples.

Results

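*Dab1*, *Dab2*, *Reln*, *Vldlr* and *Lrp8* are the 5 genes described here, out of 17931 gene symbols counted in the testes libraries. *Dab1* was chosen because it fell strongly in MLX KO testes, so its difference between genotypes is given as a description without a test. The other 4 were taken for their place beside *Dab1* in the reelin pathway, as the ligand, its receptors and the paralogous adaptor. RNA was sequenced from whole testes of 3 WT males, verified as fertile breeders, and 3 constitutive MLX KO males, all aged 7 months, which the study describes as age-matched littermates in 3 pairs. MLX is a basic helix-loop-helix leucine zipper transcription factor that binds DNA as a dimer with partners such as MondoA or ChREBP. The KO allele was made in 129S4 embryonic stem cells and lacks the exons of the bHLHLZ domain in every tissue, after recombination by Meox2-Cre that was then crossed out. KO lines came from more than 1 stem cell clone, and which line gave these males is not stated. No cell type was sorted. The libraries held 16674678 to 19742726 counts.

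Reelin, the product of *Reln*, is a large secreted glycoprotein best known for positioning neurons in the developing brain. It binds the lipoprotein receptors VLDLR and ApoER2 (encoded by *Lrp8*), and the adaptor DAB1, bound to their cytoplasmic tails through its PTB domain, is then phosphorylated by Src family kinases and recruits downstream effectors. DAB2 carries a related PTB domain and works mainly in clathrin-mediated endocytosis of lipoprotein receptors. ApoER2 is also known in the male tract as a receptor for selenoprotein P, through which selenium reaches the testis and its sperm.

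*Dab1* lies on chromosome 4 of GRCm38.p6 at chr4:103619500-104744844 on the plus strand, a span of 1125345 bases in RefSeq. *Lrp8* lies on the same chromosome at chr4:107802200-107876840, also on the plus strand. *Dab2* lies at chr15:6299788-6440715 and *Vldlr* at chr19:27216480-27254231, both on the plus strand, and *Reln* at chr5:21884454-22344705 on the minus strand. The 250 bases before each RefSeq start of these genes were searched on both strands for CACGTG, the canonical E-box that dimers of the MLX and MAX network bind, and for the variant CACGCG. All 5 genes had an entry, with 10 starts in all. CACGTG was present before the single *Reln* start, where 65 bases separate it from the start, and in none of the other 9 windows. CACGCG was present before the *Reln* start, on the opposite strand as CGCGTG, and before the first of the 3 *Lrp8* starts, with 75 bases between them. Neither hexamer was found before the 2 *Dab1* starts, the 2 *Dab2* starts or the 2 *Vldlr* starts. Over all 32817 RefSeq windows of this length, 6.02% held CACGTG and 7.61% held CACGCG. The windows of *Dab1*, the gene chosen for its fall, and the 2 windows that hold a hexamer are printed from RefSeq, 5′ to 3′ on the strand of the gene, with the hexamers in capitals. They are chr4:103619250-103619499 and chr4:104367288-104367537 (plus) for *Dab1*, chr5:22344706-22344955 (minus) for *Reln* and chr4:107802635-107802884 (plus) for *Lrp8*.
Dab1 start 1: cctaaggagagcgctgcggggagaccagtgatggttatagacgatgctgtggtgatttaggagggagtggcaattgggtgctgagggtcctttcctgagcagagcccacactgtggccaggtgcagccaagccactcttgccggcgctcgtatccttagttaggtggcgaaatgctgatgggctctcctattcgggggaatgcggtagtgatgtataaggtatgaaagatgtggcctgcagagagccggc
Dab1 start 2: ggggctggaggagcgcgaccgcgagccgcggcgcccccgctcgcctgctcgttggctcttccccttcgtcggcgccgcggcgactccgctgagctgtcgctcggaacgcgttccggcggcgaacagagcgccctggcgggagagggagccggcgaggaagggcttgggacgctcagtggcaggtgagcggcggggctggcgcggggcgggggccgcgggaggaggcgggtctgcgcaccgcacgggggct
Reln: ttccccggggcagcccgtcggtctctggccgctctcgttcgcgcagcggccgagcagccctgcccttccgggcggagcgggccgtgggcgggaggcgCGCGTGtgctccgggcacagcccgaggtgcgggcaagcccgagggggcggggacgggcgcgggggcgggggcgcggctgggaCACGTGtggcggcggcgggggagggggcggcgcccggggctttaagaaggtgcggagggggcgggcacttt
Lrp8 start 1: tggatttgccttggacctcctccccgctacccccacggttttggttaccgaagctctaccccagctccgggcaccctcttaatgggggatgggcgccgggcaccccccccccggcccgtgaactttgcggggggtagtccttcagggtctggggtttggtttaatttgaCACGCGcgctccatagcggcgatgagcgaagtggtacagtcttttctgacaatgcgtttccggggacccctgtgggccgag
The sequences describe the windows only, and ChIP-Seq of MLX was not analysed here. The second *Dab1* window has a GC content of 78.0% and the first 56.4%.

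*Dab1* was lower in MLX KO testes in each pair, and *Dab2*, *Vldlr* and *Lrp8* were higher. The fitted *Dab1* level was 5.22-fold lower, and the increases were 2.04-fold for *Dab2*, 1.65-fold for *Vldlr* and 1.25-fold for *Lrp8*. Of the 4 members tested, 3 were higher with an adjusted p under 0.05, and *Reln* did not pass (edgeR quasi-likelihood test, Benjamini-Hochberg adjustment over the 14640 genes tested). Over all genes tested, 24.8% passed as higher and 20.6% as lower, 45.4% in all. The libraries are bulk tissue, so fewer cells of a type and less RNA per cell cannot be told apart.

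The ligand gene *Reln* had 304, 198 and 264 counts in libraries WT1 to WT3, against 283, 233 and 278 in libraries KO1 to KO3. These were 16.0, 12.6 and 14.9 CPM (counts scaled to a TMM-adjusted library) in WT, against 14.6, 12.9 and 14.7 CPM in MLX KO testes. The KO values all lay within the WT range. Means were 14.5 ± 1.75 and 14.1 ± 1.02 CPM (SD, n = 3 each), a log2 fold change (LFC, KO against WT) of -0.05 (SE 0.11, 95% interval -0.28 to 0.19, edgeR adjusted p = 0.747). The interval leaves room for changes of either sign up to its bounds. The pairs gave log2 ratios of -0.13, 0.03 and -0.02, and the LFC changed sign, to 0.091, when libraries were scaled by size alone (edgeR adjusted p = 0.537).

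Of the receptors, *Lrp8* had the higher level per kilobase of exon in every library. It had 1740, 1351 and 1544 counts in WT, against 2004, 2104 and 2121 in MLX KO testes, or 91.7, 85.9 and 87.1 CPM against 103, 116 and 112 CPM. Every KO library lay above every WT library. The mean rose from 88.2 ± 3.09 to 111 ± 6.66 CPM (SD, n = 3 each), with an LFC of 0.33 (SE 0.06, 95% interval 0.20 to 0.45, edgeR adjusted p = 0.000853). The log2 ratios of the pairs were 0.17, 0.44 and 0.37, so the smallest difference was that of pair 1. An antisense lncRNA, *Lrp8os2*, overlaps *Lrp8* and has no row in the table. Whether reads were counted by strand is not stated, so its reads cannot be told apart from those of *Lrp8*.

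*Vldlr*, the other reelin receptor, was close to the lower limit of the counts. It had 15, 14 and 20 counts in WT, against 26, 29 and 32 counts in MLX KO testes, and the exact Poisson interval of a single library was as wide as 7.65 to 23.5 for the 14 counts of WT2 and 21.9 to 45.2 for the 32 counts of KO3. In CPM the libraries stood at 0.791, 0.890 and 1.13 in WT, against 1.34, 1.60 and 1.69 in MLX KO testes. The groups did not overlap. The mean rose from 0.936 ± 0.173 to 1.55 ± 0.183 CPM (SD, n = 3 each), with an LFC of 0.72 (SE 0.26, 95% interval 0.15 to 1.29, edgeR adjusted p = 0.0399), with log2 ratios of 0.69, 0.78 and 0.54 over the pairs. The call sat near the threshold. It was lost without WT1, WT2, KO2 or KO3 and in DESeq2, where the LFC was 0.69 (DESeq2 adjusted p = 0.207) and 0.70 with the pair as a replicate block (DESeq2 adjusted p = 0.358), and with no filter on low counts. The lncRNA *Gm35438* overlaps *Vldlr* on the other strand and has no row in the table.

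*Dab1*, the adaptor of reelin signalling, had 48, 57 and 51 counts in WT, against 10, 9 and 13 counts in MLX KO testes. In CPM these were 2.53, 3.62 and 2.88 against 0.516, 0.498 and 0.688. The highest KO library was far below the lowest WT library, and all 3 KO libraries stayed above the detection floor of 3 counts. The mean went from 3.01 ± 0.559 to 0.567 ± 0.105 CPM (SD, n = 3 each), with an LFC of -2.38 (SE 0.26), with log2 ratios of -2.08, -2.62 and -1.90 over the pairs. *Dab1* was chosen for its fall in these counts, and neither the LFC nor its SE takes account of that choice. This was the third lowest LFC of the 14640 genes tested. Without any single library the LFC lay between -2.54 and -2.24. Counting error alone was sizeable in the KO libraries, with an exact Poisson interval of 4.12 to 17.1 for the 9 counts of KO2. The lncRNA *Gm36661* lies within *Dab1* on the other strand and has no row in the table.

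*Dab2*, the endocytic adaptor, moved the other way. It had 137, 118 and 97 counts in WT, against 217, 294 and 261 in MLX KO testes, or 7.22, 7.50 and 5.47 CPM against 11.2, 16.3 and 13.8 CPM. The groups did not overlap, and KO1 was the lowest KO library. The mean rose from 6.73 ± 1.10 to 13.8 ± 2.54 CPM (SD, n = 3 each), with an LFC of 1.03 (SE 0.16, 95% interval 0.68 to 1.38, edgeR adjusted p = 0.000443). The pairs gave log2 ratios of 0.62, 1.10 and 1.32. The lncRNA *Gm16311* lies within *Dab2* on the other strand and has no row in the table. The CPM of the genotypes did not overlap for 3 of the 4 tested members, all higher in KO. Over all genes tested, 56.2% did not overlap, with 30.3% higher and 25.9% lower in KO.

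**Figure D1:**
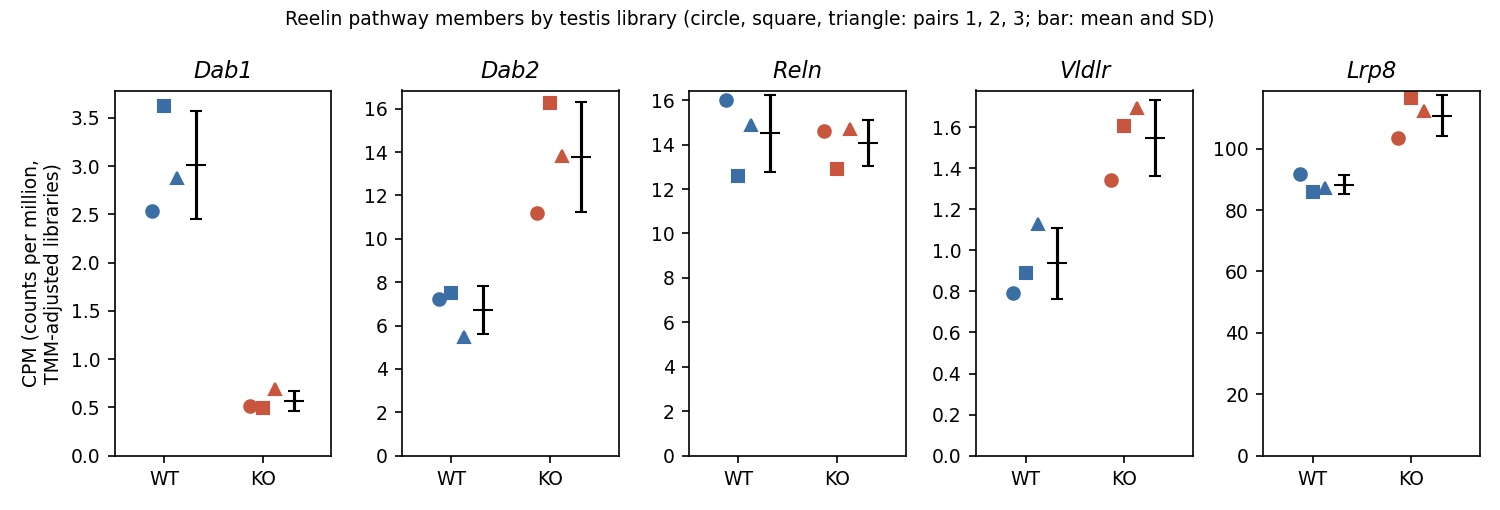
CPM (vertical axes, linear from 0, a scale of its own for each gene) of the 5 members in each WT and KO testis library, with symbols for pairs 1 to 3 and a bar for the mean and SD (n = 3). *Dab1* lies at 2.53 to 3.62 CPM in WT and 0.498 to 0.688 CPM in KO, *Dab2*, *Vldlr* and *Lrp8* are higher in every KO library, and the *Reln* groups overlap.

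Many markers of the cells of the testis differed between genotypes beside these results. Over all genes tested, 24.8% passed as higher and 20.6% as lower. The Sertoli list rose as a whole, with 8 of 8 genes higher and past the threshold, and its summed level went from 160.4–163.1 CPM over the WT libraries to 240.4–277.2 CPM over the KO libraries. All 8 Leydig markers were higher (864.9–885 to 1859–2446 CPM), as were the 7 macrophage markers tested of 8 listed (70.5–74.2 to 129–137 CPM). The call of *Cx3cr1* in the macrophage list (edgeR adjusted p = 0.0494, libraries overlapping) was lost in 7 of 14 alternatives, among them those without WT1, WT2, WT3, KO1 or KO2. *Adgre1*, a defining macrophage gene, has no row in the table. Of the endothelial markers 2 of 7 were higher (36.5–45.6 to 52.6–59.1 CPM) and of the peritubular myoid markers 4 of 6 were higher and 1 was lower (310–369.5 to 308.6–324.9 CPM). The lower one, *Actg2* (267 ± 25.6 to 204 ± 11.7 CPM, SD, n = 3 each), held most of the level summed over the list, so that sum mostly follows *Actg2*. Whether *Actg2* marks myoid cells in these libraries was not tested. The LFC was above 0 for 5 of the 6 myoid markers. *Actg2* is named here after its values were seen. Of the 8 spermatogonial markers tested, of 10 listed, 1 was higher and 1 lower (93.4–94.9 to 103.7–113.9 CPM). The endothelial and spermatogonial calls lie near or below the shares over all genes tested. In the germ cells at later stages, 7 of 10 spermatocyte markers were lower (1435–1481 to 1283–1333 CPM), as were 6 of 6 for round spermatids (1251–1279 to 1047–1114 CPM) and 8 of 8 for elongating spermatids (21250–22100 to 12420–15150 CPM). With library size alone, the calls of 7 spermatocyte and 3 round spermatid markers were lost and those of the elongating spermatid markers were not. Of the 7 spermatocyte calls, 1 was left without KO2, 2 without WT1 and 3 without KO3, while 9 markers passed in DESeq2 and with its size factors in edgeR. Among the round spermatid calls, those of *Spaca1* and *Spaca3* were each lost in 6 of 14 alternatives. None of the 4 Schwann and nerve markers passed in edgeR or in any alternative (unadjusted p from 0.200 to 0.813), at 19.7–21.03 CPM in WT and 19.4–22.0 CPM in KO. The 2 epididymal markers with a row were at 0.0564–0.105 CPM summed in WT and 0.106–0.277 CPM in KO, too low to test. The part of these cell shares in the levels of the 5 members was not tested.

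Per kilobase of exon, which allows levels to be compared between genes, *Lrp8* stood highest in both genotypes, at 8.39 ± 0.293 CPM per kb in WT and 10.5 ± 0.633 in MLX KO testes (SD, n = 3 each, GENCODE M21 exon lengths). *Dab2* followed with 0.917 ± 0.150 in WT and 1.87 ± 0.345 in KO, and *Reln* with 0.611 ± 0.0737 and 0.593 ± 0.0431. The order of *Dab2* and *Reln* in WT depends on the gene models. With RefSeq exons, which give *Reln* 11702 in place of 23738 bases, *Reln* was at 1.08 to 1.37 and *Dab2* at 0.843 to 1.16 CPM per kb in WT, ranges that overlap. The lowest 2 members exchanged places between genotypes. *Dab1* was at 0.320 to 0.458 CPM per kb in WT, above *Vldlr* at 0.0785 to 0.112, and at 0.0630 to 0.0870 in MLX KO testes, below *Vldlr* at 0.133 to 0.168. Neither pair of ranges overlapped. *Dab1* was chosen for its fall, so its lower place in KO follows largely from that choice.

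**Figure D2:**
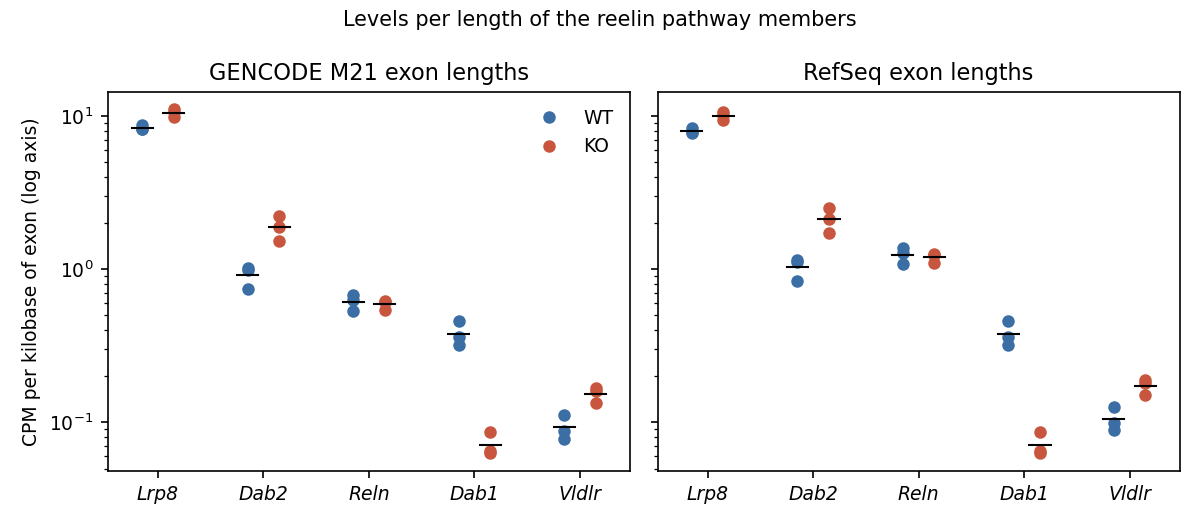
CPM per kilobase of exon (log axis) of the 5 members in WT and KO libraries, with GENCODE M21 lengths on the left and RefSeq lengths on the right; points are libraries and bars are means (n = 3). *Lrp8* is highest throughout, and *Dab1*, which was chosen for its fall, is above *Vldlr* in WT and below it in KO with either set of lengths.

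Around these 5 genes, 71 other genes of the pathway were listed by role, of which 70 had a row and 67 had enough counts to test. Of the 67, 35 were higher and 5 were lower in MLX KO testes with an adjusted p under 0.05, and 27 did not pass. That was 59.7% past the threshold, 52.2% higher and 7.46% lower, beside 45.4%, 24.8% and 20.6% over all genes tested. The list was drawn up with earlier results of these data known, so these shares are a description. The median LFC of the list was 0.36 and that of all genes tested 0.03. When libraries were scaled by size alone, which moved the median of all genes up by 0.139, 43 of the list were higher and 3 lower. Over all 14640 genes tested, that scaling gave 5343 higher and 1268 lower, in place of 3634 and 3015.

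Genes for extracellular ligands and binding partners of VLDLR and ApoER2 were higher in 7 of 7 tested. The call of 1 of them, *Lpl* (lipoprotein lipase, edgeR adjusted p = 0.0459, libraries overlapping), was lost in 6 of 14 alternatives, which were both DESeq2 fits and those without WT1, WT2, KO2 or KO3. *Lpl* is named here after its values were seen. Selenoprotein P (*Selenop*), the selenium carrier taken up through ApoER2, had 1807, 1841 and 1882 counts in WT, against 3849, 5945 and 5819 in MLX KO testes. Its mean went from 106 ± 10.9 to 278 ± 70.0 CPM (SD, n = 3 each), with an LFC of 1.39 (SE 0.15, edgeR adjusted p = 5.77e-05), and KO1 was again the lowest KO library. *Apoe*, the apolipoprotein that gives ApoER2 its name, had 1050, 1154 and 1234 counts against 2634, 3501 and 3289, a rise from 66.1 ± 9.50 to 168 ± 29.4 CPM (LFC 1.35, SE 0.13, edgeR adjusted p = 2.22e-05). Clusterin (*Clu*), another lipoprotein ligand of both receptors and an abundant Sertoli cell product, rose from 737 ± 24.6 to 1267 ± 142 CPM (LFC 0.78, SE 0.08, edgeR adjusted p = 2.51e-05). The libraries of the genotypes did not overlap for these 3 ligands, all higher in KO, as was so for 30.3% of all genes tested. Their levels moved beside the Sertoli, Leydig and macrophage markers, all of which were higher, and the part of those cells was not tested.

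Among proteases that cut reelin or activate those that do, 4 of 6 were higher and the other two did not pass. *Adamts2*, which cleaves procollagens as well as reelin, had 87, 64 and 79 counts in WT, against 173, 173 and 217 in KO (LFC 1.19, SE 0.14, edgeR adjusted p = 7.31e-05). *Adamts5*, an aggrecan-cleaving protease, had 150, 127 and 126 against 304, 290 and 254 counts (LFC 0.97, SE 0.11, edgeR adjusted p = 6.46e-05). *Adamts3*, the main reelin-inactivating protease in the brain, had 24, 25 and 20 counts in WT, against 8, 33 and 37 in KO (LFC 0.07, SE 0.43, edgeR adjusted p = 0.902). The KO libraries of *Adamts3* spread on both sides of the WT libraries. *Adamts3* is named here after its values were seen.

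Of 12 other genes of the lipoprotein receptor family, 5 were higher and the rest did not pass. Among the 5, the call of *Lrp4* (edgeR adjusted p = 0.0252) was lost in 6 of 14 alternatives, both DESeq2 fits among them. *Lrp4* is named here after its values were seen. *Lrp10* rose from 23.8 ± 0.972 to 44.3 ± 4.38 CPM (SD, n = 3 each; LFC 0.89, edgeR adjusted p = 1.77e-05). *Lrp1*, a broad scavenger receptor, had 758, 584 and 896 counts in WT, against 1209, 1444 and 1689 in KO (LFC 0.86, SE 0.13, edgeR adjusted p = 0.000435). The pairs gave log2 ratios of 0.64, 1.10 and 0.82 for *Lrp1*. Megalin (*Lrp2*), the large endocytic receptor that works with DAB2 in the kidney, had 72, 51 and 58 counts in WT, against 46, 54 and 59 in KO and did not pass (LFC -0.29, SE 0.18, edgeR adjusted p = 0.215).

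The kinases that phosphorylate DAB1 split in their calls. *Fyn* rose from 38.7 ± 1.13 to 51.8 ± 3.82 CPM (SD, n = 3 each; LFC 0.42, edgeR adjusted p = 0.000479) and *Src* from 12.2 ± 0.790 to 17.01 ± 0.772 CPM (LFC 0.47, edgeR adjusted p = 0.00151). *Yes1* was at 28.1 ± 2.13 and 29.4 ± 1.68 CPM (LFC 0.06, SE 0.08, edgeR adjusted p = 0.529), with overlapping libraries.

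Downstream of DAB1, 13 of 25 genes tested were higher and 2 were lower. *Itga3*, an integrin subunit, had 32, 35 and 45 counts in WT, against 65, 87 and 92 in KO (LFC 1.02, SE 0.22, edgeR adjusted p = 0.00299), and the receptor gene *Notch1* had 110, 84 and 124 against 213, 171 and 222 (LFC 0.83, SE 0.14, edgeR adjusted p = 0.000648). *Pafah1b1*, which encodes the dynein regulator LIS1, fell from 462 ± 26.2 to 371 ± 18.2 CPM (SD, n = 3 each; LFC -0.32, edgeR adjusted p = 0.00109). *Rapgef1*, the guanine nucleotide exchange factor that acts on RAP1, fell from 189 ± 6.10 to 169 ± 7.60 CPM (LFC -0.16, edgeR adjusted p = 0.025). The *Rapgef1* call was lost without WT1, WT3, KO2 or KO3 and with library size alone, where its LFC was -0.02. These decreases stood beside the lower spermatid markers, whose part was not tested.

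Among genes for turnover and sorting of the receptors and DAB1, 1 of 6 was higher and 1 was lower. *Snx17*, a sorting nexin that recycles lipoprotein receptors, rose from 29.2 ± 0.810 to 37.0 ± 2.56 CPM (SD, n = 3 each; LFC 0.34, edgeR adjusted p = 0.00248). *Socs7*, an adaptor of the ubiquitin ligase that degrades phosphorylated DAB1, fell from 406 ± 21.9 to 315 ± 12.5 CPM (LFC -0.37, edgeR adjusted p = 0.000365). *Mylip*, a ubiquitin ligase for VLDLR and ApoER2, had 32, 28 and 37 counts in WT, against 32, 54 and 47 in KO and did not pass (LFC 0.35, SE 0.25, edgeR adjusted p = 0.265).

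Of the other PTB domain adaptors, 3 of 8 tested were higher and 2 were lower. *Apbb2*, an amyloid precursor protein binding adaptor, had 41, 21 and 40 counts in WT, against 72, 71 and 62 in KO (LFC 0.91, SE 0.21, edgeR adjusted p = 0.00535), and its adjusted p was 0.0521 from DESeq2 with the replicate block. *Apba1* fell from 133 ± 6.31 to 104 ± 6.77 CPM (SD, n = 3 each; LFC -0.35, edgeR adjusted p = 0.000761) and *Apbb1* from 20.7 ± 0.646 to 17.7 ± 0.562 CPM (LFC -0.23, edgeR adjusted p = 0.0296). The *Apbb1* call was lost without WT2, WT3, KO2 or KO3, in DESeq2 (DESeq2 adjusted p = 0.0686) and with library size alone, where its LFC was -0.09.

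**Figure D3:**
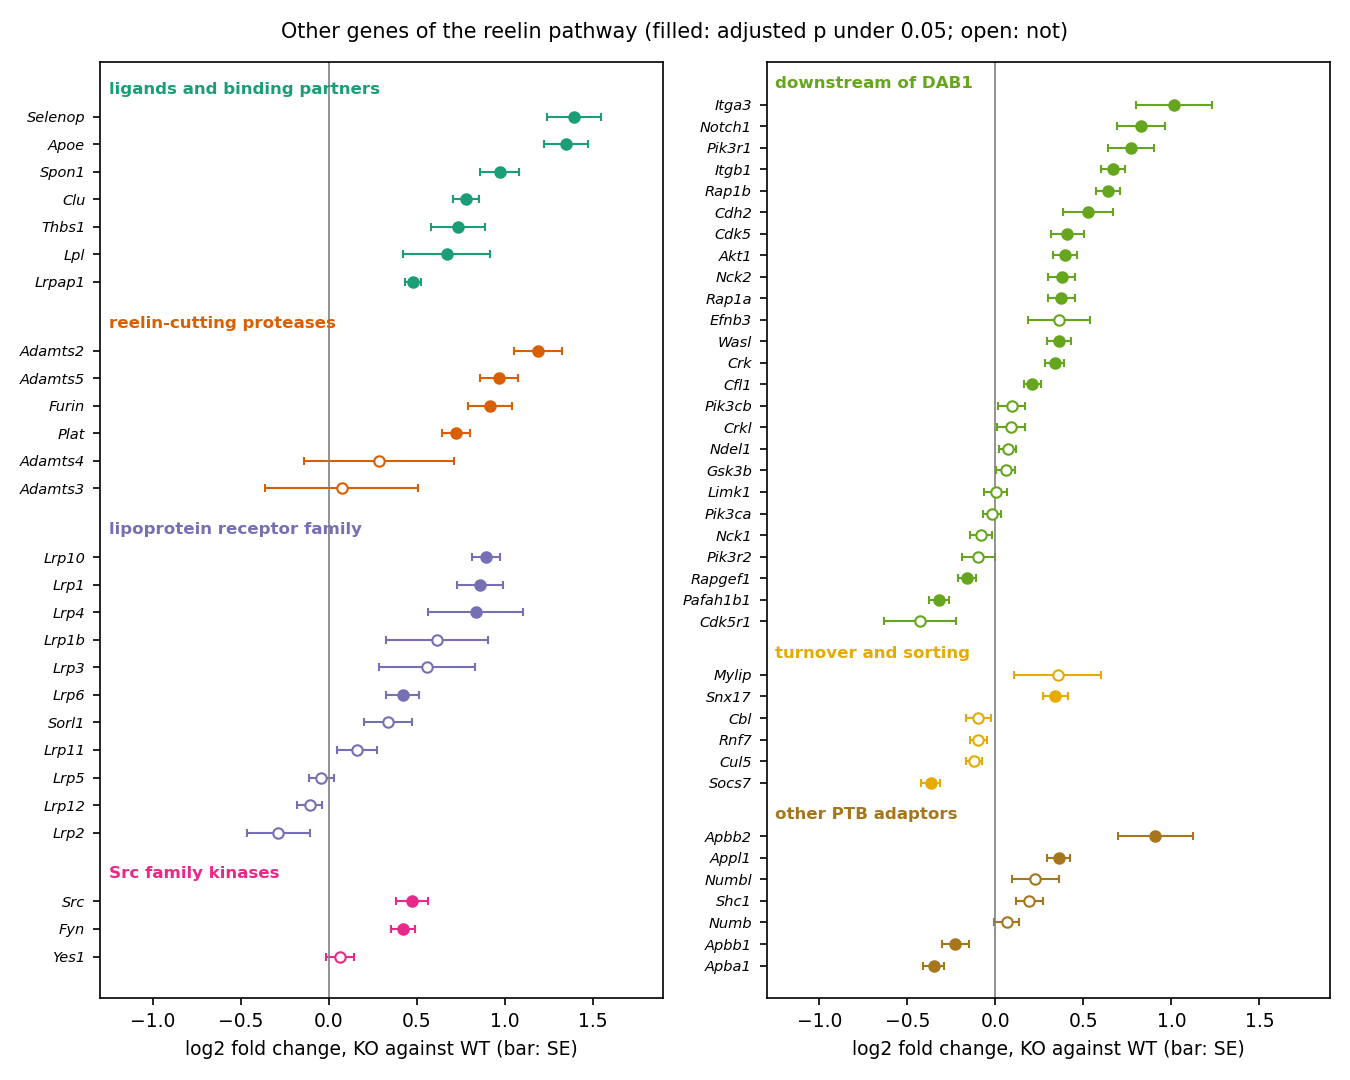
LFC (KO against WT, horizontal axes) with its SE for 65 of the 67 other pathway genes tested, grouped by role, filled where the adjusted p was under 0.05 in edgeR. All 7 ligand genes lie to the right of 0 and are filled, though the *Lpl* call was lost in 6 of 14 alternatives, and the 5 filled points left of 0 are *Rapgef1*, *Pafah1b1*, *Socs7*, *Apbb1* and *Apba1*.

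The neighbours of *Dab1* on chromosome 4 were read as a description, since *Dab1* was chosen for its fall, though not for its position. The 5 genes of the table on each side were all tested. Their LFC lay between -0.41 and 0.83 with a median of 0.06. Of the 10, 2 were higher and 2 lower with an adjusted p under 0.05, beside 24.8% and 20.6% over all genes tested. *Dab1* stood at -2.38, but the gap to its neighbours follows from its choice and says nothing of the locus. *C8b*, which encodes a complement component and is the nearest at 21.5 kb, had 228, 161 and 185 counts in WT, against 230, 182 and 215 in KO (LFC 0.03, SE 0.11, edgeR adjusted p = 0.864). *Wdr78*, 505.2 kb away, fell from 154 ± 1.51 to 117 ± 7.70 CPM (SD, n = 3 each; LFC -0.41, edgeR adjusted p = 2e-04), and *4921539E11Rik*, 328.5 kb away, from 151 ± 4.16 to 127 ± 4.53 CPM (LFC -0.26, edgeR adjusted p = 0.00156). *1700024P16Rik*, 90.5 kb away, rose from 10.6 ± 1.12 to 18.9 ± 2.02 CPM (LFC 0.83, edgeR adjusted p = 0.000192), though it overlaps *C8a*, so that reads of the shared stretch could have gone to either gene. *Mier1*, 453.7 kb away, rose from 45.2 ± 2.95 to 50.9 ± 1.02 CPM (LFC 0.17, edgeR adjusted p = 0.0387), a call lost in 8 of 14 alternatives, which were DESeq2's size factors, both DESeq2 fits and those without WT2, WT3, KO1, KO2 or KO3. *C8b* is named here after its values were seen.

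**Figure D4:**
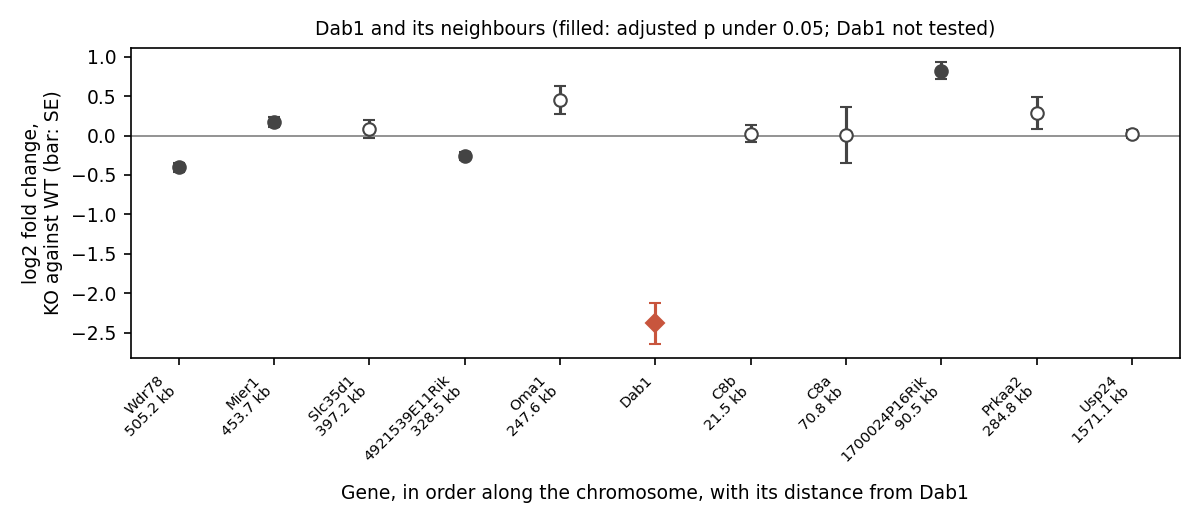
LFC (KO against WT, vertical axis) with its SE for *Dab1* (diamond) and the 5 genes of the table on each side, in chromosome order and evenly spaced, with the distance from *Dab1* in kb under each name. The neighbours lie between -0.41 and 0.83, and *Dab1*, which was chosen for its fall, at -2.38.

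The 5 genes whose pattern over the 6 libraries was closest to that of *Dab1* were *Vav2*, *Fam169b*, *Ptpn7*, *Eomes* and *Unc5a*. Likeness was the root mean square difference of log2 CPM after each gene was centred on its mean over the libraries. The values are a description, since a gene can come close only by falling to a like extent on this scale. Its prior count of 2 damps falls at low counts, so fitted LFC values can differ more. *Vav2*, which encodes an exchange factor for small GTPases, was nearest, at 0.180, with 2293, 2059 and 2276 counts in WT, against 512, 505 and 505 in KO. *Vav2* was much more abundant than *Dab1*, and its KO libraries lay close together. *Fam169b* followed at 0.373, with 34, 27 and 26 against 9, 8 and 6 counts. *Ptpn7*, a tyrosine phosphatase gene, was at 0.399, with 88, 69 and 66 against 31, 15 and 28 counts. *Eomes*, a T-box transcription factor gene expressed in undifferentiated spermatogonia, was at 0.411 and had 27, 30 and 25 counts in WT, against 5, 2 and 2 in KO. Its KO2 and KO3 counts lay under the detection floor of 3 counts, and its fitted LFC was -3.24, against -2.38 for *Dab1*. *Unc5a*, a netrin receptor gene, was at 0.427, with 90, 77 and 133 against 16, 33 and 27 counts. On the centred log2 CPM scale *Unc5a* spread most within each genotype, with WT3 its highest and KO1 its lowest library. The SE of its fitted LFC, 0.28, was below the 0.39 of *Eomes*.

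**Figure D5:**
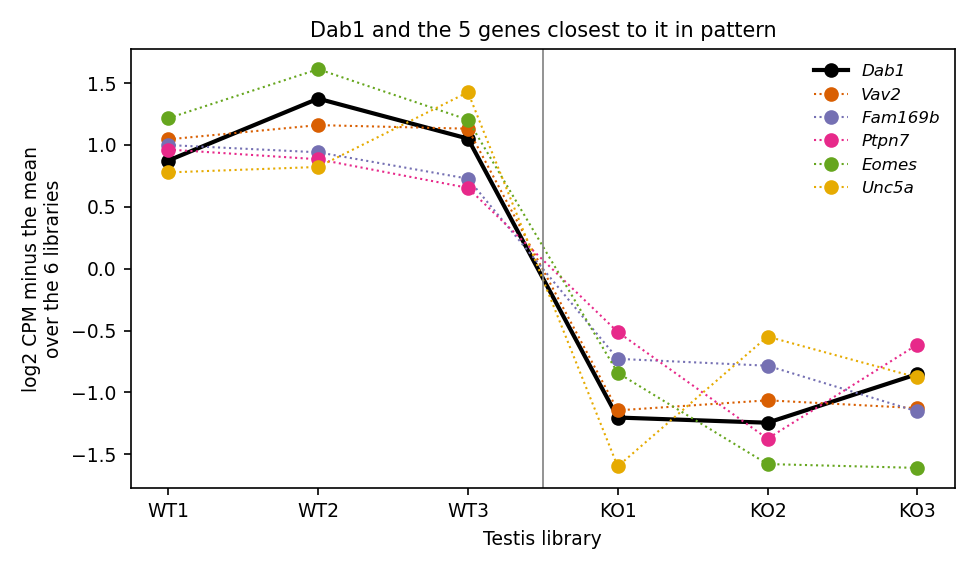
Log2 CPM minus the gene's mean over the 6 libraries (vertical axis) for *Dab1* (solid line) and the 5 genes closest to it, by library; lines join a gene's points only to guide the eye. All 6 genes lie above 0 in the WT libraries and below 0 in the KO libraries, from -0.51 (*Ptpn7*, KO1) to -1.61 (*Eomes*, KO3) in KO.

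*Mlx* itself had 128, 96 and 98 counts in WT, against 94, 109 and 102 in KO (LFC -0.18, SE 0.14, edgeR adjusted p = 0.326). Which exons the count covers is not stated, and exons outside the deletion remain in the KO allele, so it does not check the genotype labels. Directions are therefore read from the labels.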

How the data were processed

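RNA of whole testes was extracted with Trizol and sequenced by the authors as paired-end reads, which they aligned to mm10 with TopHat. The text of the study names EdgeR or DE-Seq after alignment, and the submitters' processing notes list bcl2fastq 1.8.4, Bowtie2, TopHat, DESeq2 and bedtools. The counting tool, its strand setting and the gene annotation are not given in the sources used here. The deposited values are raw counts, 1 whole number for each symbol in each library. The same table holds the authors' comparison (mean signal, log2 fold change with its standard error, test statistic, p-value and adjusted p-value), which was not used. ChIP-Seq was not analysed here.

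Of 17933 rows, 2 repeated another and were used once. Through RefSeq, 17248 symbols were matched by current symbol, 649 by 1 older symbol and 34 by neither. WT and KO were compared in edgeR 4.0.16 (R 4.3.3), with filterByExpr at a minimum count of 10, TMM factors (0.943 to 0.961 in WT, 1.02 to 1.07 in KO), and a quasi-likelihood test of a model that holds genotype alone, two-sided, with Benjamini-Hochberg adjustment over 14640 genes and a threshold of 0.05. Fold changes use the same fit. CPM values use TMM-adjusted library sizes. Likeness to *Dab1* used log2 CPM with a prior count of 2. Exact Poisson intervals (95%) cover counting error only, and 3 counts served as the detection floor. Levels per kilobase used the union of exons in GENCODE M21 or RefSeq. Coordinates are those of RefSeq on GRCm38.p6, the assembly of mm10.

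The study describes WT and KO males as littermates in 3 pairs and the sample labels number them as paired replicates, so same-numbered libraries were taken as pairs. Deviations from the group means correlated across genes at 0.145, 0.0363 and 0.121 within pairs and from -0.123 to 0.0330 between the others. Counts of libraries of a genotype differed by more than sampling noise (chi-square divided by its degrees of freedom, 2.73 to 8.23), highest for KO1, so no library was a duplicate. DESeq2 1.42.0, other scalings and filters, the pair as a block and each library left out were alternatives. The code was tested on simulated data.

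The 5 members and all lists were chosen with earlier results of these data known. Named genes are the 5 members, of each pathway list up to the 2 largest increases and 2 largest decreases past the threshold (every gene of a list of 3), *Apoe*, *Clu*, *Selenop* (in the table as *Sepp1*), *Lrp1*, *Lrp2* and *Mylip* whatever their value, the neighbours of *Dab1* past the threshold, and the 5 genes closest to *Dab1* in pattern. Some genes that the rule names are counted in their lists but not reported here.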

Additional observations from a re-analysis of the deposited data

How the results depend on the processing

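The directions and calls of *Dab2* and *Lrp8* were kept in all 14 alternatives run. The direction of *Dab1* was kept too, which follows from its choice for a strong fall in these counts. The LFC ranged from -2.43 to -2.25 for *Dab1*, 0.99 to 1.17 for *Dab2* and 0.29 to 0.47 for *Lrp8* over 8 alternatives with all libraries, and from -2.54 to -2.24, 0.90 to 1.16 and 0.29 to 0.38 with each library left out. *Reln* changed sign with library size alone (0.091) and without WT1 (0.031) or KO2 (0.017), and with each library left out its LFC lay between -0.137 and 0.031. It passed in none of the 14 runs, with adjusted p from 0.346 to 0.930 from edgeR and DESeq2. *Vldlr* kept its direction but lost its call with no filter (0.72, edgeR adjusted p = 0.0558), in DESeq2 (0.69, adjusted p = 0.207) and in DESeq2 with the replicate block (0.70, adjusted p = 0.358). With each library left out it lay between 0.60 and 0.88, with adjusted p from 0.0321 to 0.139 from edgeR, lost in 4 of 6. The cause was not tested, though a left-out library also leaves fewer samples. Library size alone moved the median LFC of genes tested by 0.139 and the split of calls from 3634 higher and 3015 lower to 5343 and 1268, or 80.8% higher in place of 54.7%. Calls over the table were fewest in DESeq2 with the replicate block (4579 against 6649) and lay between 5130 and 7395 with each library left out. Of the pathway list, 35 to 46 genes passed, and of the 10 *Dab1* neighbours 3 to 6. In the main comparison 40 of the 67 list genes tested and 4 of the 10 neighbours passed, beside 45.4% of all genes tested.

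With the pair as a replicate block in edgeR, the LFC was -0.04 for *Reln* and 0.72 for *Vldlr* (edgeR adjusted p = 0.0453), no call of a member changed, 41 of the pathway list passed in place of 40, and *Sorl1* was gained (0.34, edgeR adjusted p = 0.0463). At these depths *Vldlr*, with 14 to 32 counts a library, and *Dab1* in KO, with 9 to 13, carry the widest counting error of the members.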
